A study of Mus musculus with 4 samples.

Results

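Dendritic cells after 10 days of differentiation in culture were set against the progenitors they had been grown from. There is 1 array on each side, so the comparison uses 2 of the 4 arrays of the series. They were picked by their titles, with earlier results of these data known. The progenitor array holds total RNA of mouse dendritic cell progenitors from bone marrow that had been amplified in vitro. The day 10 array holds total RNA of cells differentiated from such progenitors for 10 days, with no tumour necrosis factor (TNF) named for them. The remaining arrays, of cells after 7 days and of cells after 10 days that were also given TNF for 16 hours, are printed as levels beside the main pair. The labels name no strain, age, growth factor, purification step or number of cultures and mice, and they refer to a published protocol for RNA and hybridisation. With 1 array in each group there was no replicate error, no test and no p-value, and each difference below is one between a pair of hybridisations.

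Dendritic cells take up antigen, cut it with proteases in endosomes and lysosomes, and display the peptides on MHC class II molecules to CD4 T cells. Their bone marrow progenitors divide and still carry early myeloid programmes, such as the enzymes of the neutrophil primary granule. The passage from one state to the other is known to run under PU.1 and the interferon regulatory factors, while Myb, Gfi1 and the E2F factors belong to dividing or granulocytic cells.

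Levels are intensities in array units after scaling, and they can be compared between arrays but not between genes. A gene was read as measured above 428 units, the 60th percentile of all values. Of 8220 genes, 4460 lay above that floor on at least 1 of the 2 arrays and 3392 on both. At day 10, 771 of the 4460 were at least 2-fold higher than in progenitors (17.3%) and 660 were at least 2-fold lower (14.8%). Each list count below is to be read beside these shares of all genes. The higher genes included 235 at or under the floor in progenitors, and the lower genes 198 at or under the floor at day 10. For these the fold is a lower bound against 428 units and is written "at least". Differences of 4-fold or more were found for 237 genes upward and 158 downward, of 16-fold or more for 27 and 12, and of 32-fold or more for 15 and 3. The median log2 ratio over the 4460 genes was 0.02, with an interquartile range of -0.62 to 0.69. After quantile normalization, which gives all arrays the same distribution of values, 685 genes were higher and 713 lower, so that 49.0% of the differing genes were higher in place of 53.9%.

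**Figure D1:**
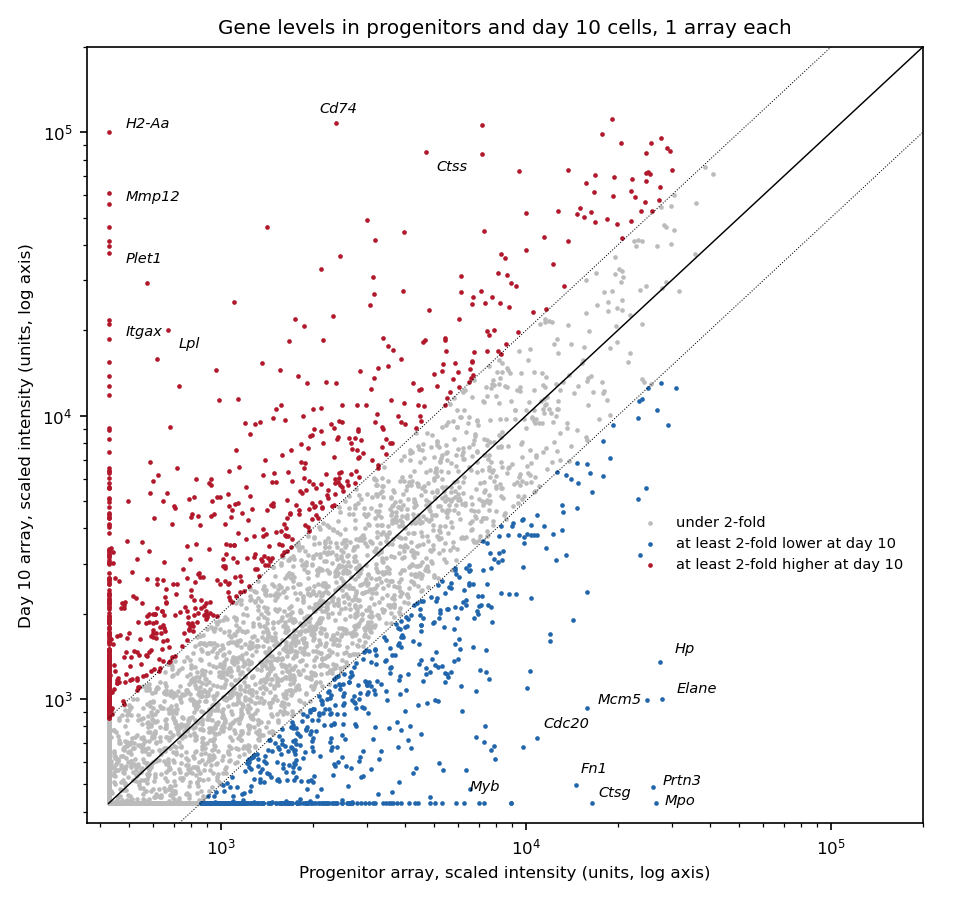
Scaled intensity of each gene on the progenitor array (horizontal, log axis) and on the day 10 array (vertical, log axis), with values under 428 units drawn at 428. The solid line marks equal levels and the dotted lines 2-fold; of the labelled genes, H2-Aa, Mmp12, Plet1 and Itgax sit at the floor in progenitors, and Mpo, Ctsg and Myb at the floor at day 10.

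The bright end of the arrays has to be read with care. The highest value was 41044 units on the progenitor array and 137313 on the day 10 array, and 61 and 184 probe sets lay above 25000. The median log2 ratio was near 0 up to 8192 units, 0.33 for the 197 genes between 8192 and 16384 units, and 0.97 for the 109 genes above 16384. After quantile normalization that last value was -0.14. For part of the 171 genes above 16384 units at day 10 the ratio after quantile normalization is therefore given with the plain one. It is also given for bright progenitor genes whose fold moved by more than 1.5 times. A plain fold printed alone for a bright gene is not adjusted for brightness. Transcripts of bacteria and phage that are spiked into the hybridisation as controls were also brighter at day 10. Their 9 probe sets had a median log2 ratio of 1.18 (2.27-fold), with a range of 0.68 to 1.43, at low and at high brightness alike. Scaled to these controls, a log2 ratio between 2 values that stay above the floor would be lower by 1.18. A bound that the floor sets need not move by that amount. The part of the controls in the results was not tested.

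**Figure D2:**
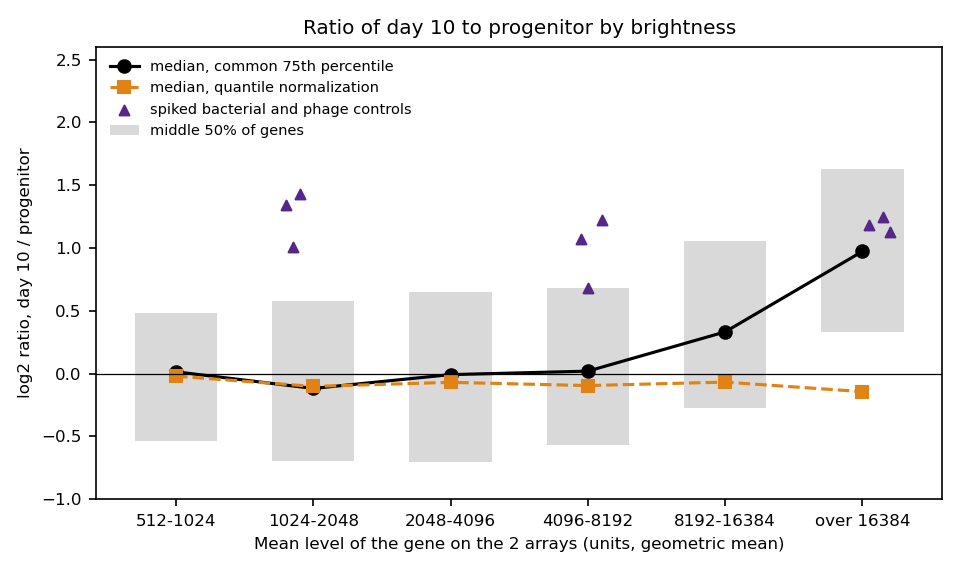
Log2 ratio of day 10 to progenitor by the mean level of the gene on the 2 arrays: grey boxes span the interquartile range of the genes, black points are medians after scaling, orange squares medians after quantile normalization, and triangles the 9 spiked controls. The black median leaves 0 only above 8192 units, to 0.33 and 0.97, while the controls lie between 0.68 and 1.43 throughout.

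The labels were checked against the markers of each state. Itgax, which encodes the dendritic cell integrin CD11c, read 106 units before differentiation and 21075 at day 10. Of the progenitor markers, Myb was at 8955 and 248 units, Mpo at 26660 and 200, and the growth factor receptor gene Flt3 at 1972 and 517. A second Flt3 probe set read 517 and 1032 units, the other way. Kit, also a progenitor marker, was 2.10-fold higher at day 10 (647 and 1362 units). The stem cell marker Cd34 and the dendritic cell factor Zbtb46 lay under the floor on both arrays.

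Genes of the MHC class II pathway had the largest median difference of the lists. Of 17 listed, 14 were measured and 12 lay above the floor, and all 12 were higher at day 10, with a median log2 ratio of 4.84 against 0.02 over all genes. H2-Aa, the alpha chain of the I-A molecule, read -492 units in progenitors, 20686 at day 7, 100111 at day 10 and 81388 with TNF. It was under the floor in progenitors alone and at least 234-fold higher at day 10, or 7.87 on the log2 scale, and 7.07 there after quantile normalization. The beta chain genes H2-Eb1 and H2-Ab1 were at 391 and 348 units in progenitors and at 55859 and 46287 at day 10, at least 130-fold and at least 108-fold higher. After quantile normalization they were at least 87.4-fold and at least 74.4-fold higher. Cd74, the invariant chain that guards the peptide groove, was the 1 member of the class II structure already clear in progenitors. It read 2380, 20060, 107887 and 71535 units on the 4 arrays in the order above and was 45.3-fold higher at day 10, 26-fold after quantile normalization.

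The peptide editors were higher as well. H2-DMa was at least 96.6-fold higher, from 371 to 41346 units, H2-DMb1 at least 50.7-fold and H2-DMb2 at least 13.1-fold, the last pair by probe sets that can be shared within their family. After quantile normalization H2-DMa was at least 67.6-fold and H2-DMb1 at least 40.3-fold higher. H2-Oa, which restrains the editor, was at least 6.22-fold higher. Among the processing enzymes Ctss, the cathepsin that trims the invariant chain, was 18.2-fold higher (4685 to 85334 units, 10.7-fold after quantile normalization), and Ifi30, the lysosomal thiol reductase, 4.07-fold. Of the regulators, Ciita, the class II transactivator, read 53 and 1478 units, at least 3.45-fold higher by a bound that the floor sets, and Rfxank, a subunit of the promoter-binding complex, 503 and 1167 units, 2.32-fold. H2-Eb2 and H2-Ob were under the floor on both arrays. Each array reads the RNA of many cells at once, and the labels name no purification step. More cells that carry a transcript and more of it per cell therefore cannot be told apart, here and below.

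Class II promoters are known for a set of conserved boxes, the last of which, the Y box, holds the letters ATTGG on the coding strand. The 150 bases before the start of 3 of these genes are shown, with each ATTGG or its complement CCAAT in capitals, chosen from the higher members that hold these letters and not by the size of their ratios. They are RefSeq sequence of build GRCm38.p6, 5′ to 3′ on the gene's strand: H2-Aa at chr17:34287824-34287973 on the minus strand, H2-Eb1 at chr17:34305717-34305866 and H2-DMb1 at chr17:34153041-34153190, both on the plus strand.
H2-Aa: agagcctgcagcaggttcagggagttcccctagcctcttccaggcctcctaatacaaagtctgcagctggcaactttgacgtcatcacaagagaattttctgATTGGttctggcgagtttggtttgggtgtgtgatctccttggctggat
H2-Eb1: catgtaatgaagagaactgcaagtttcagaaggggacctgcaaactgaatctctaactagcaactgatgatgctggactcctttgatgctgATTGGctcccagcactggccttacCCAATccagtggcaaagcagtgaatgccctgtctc
H2-DMb1: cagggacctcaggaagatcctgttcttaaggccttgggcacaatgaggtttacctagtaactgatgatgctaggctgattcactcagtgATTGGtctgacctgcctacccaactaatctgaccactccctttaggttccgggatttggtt
The letters ATTGG began 48 bases before the start in H2-Aa, 59 in H2-Eb1 and 61 in H2-DMb1. On either strand, 6 of the 9 higher class II members with a promoter in the table held them in at least 1 window of that length. Of all 27025 genes in that table, 27.7% did. A match of letters is a description and shows no binding.

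Class I genes, whose products present peptides to CD8 T cells, differed less. Of 15 members above the floor 8 were higher and 2 lower. The median log2 ratio was 1.04, and after quantile normalization it was 0.48 with 4 members higher and 2 lower. Tap1, the peptide transporter, was 2.99-fold higher (1817 to 5427 units), Tapbp, which tethers it to class I, 2.32-fold, and the immunoproteasome subunits Psmb10 and Psmb9 2.27-fold and 2.06-fold. The bright genes B2m and H2-K1 were 3.20-fold and 3.06-fold higher, but 1.69-fold and 1.39-fold after quantile normalization. Pdia3, a chaperone of the loading complex, was 2.53-fold lower.

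Surface genes that mark dendritic cells were higher in 6 of 10 members above the floor and lower in 1, Flt3. Itgax read 106, 6188, 21075 and 29065 units on the progenitor, day 7, day 10 and TNF arrays. It was at least 49.2-fold higher at day 10, or at least 39.6-fold after quantile normalization. Plet1, a surface glycoprotein gene, was at least 92.5-fold higher (252 to 39605 units), or at least 65.8-fold after quantile normalization. Anpep, the aminopeptidase CD13, was at least 11.9-fold higher. Sirpa, the receptor for CD47, was 9.78-fold higher, with a second probe set at a log2 ratio of 3.49. Ly75, the endocytic receptor DEC-205, was at least 4.91-fold higher at day 10 at 2103 units, below its 2629 at day 7 and its 9267 with TNF. Xcr1, Cd8a, Itgae and Dpp4, used to mark subsets of dendritic cells in tissue, were under the floor on both arrays.

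Genes of costimulation and maturation were higher in 9 of 15 members above the floor and lower in none, with a median of 1.81. These cells had no TNF named in their labels. Il7r, the interleukin 7 receptor, was at least 29.7-fold higher (105 to 12734 units), Cd83 at least 10.6-fold, Marcks, an actin-binding membrane protein gene, at least 7.05-fold, and Fscn1, the actin bundler of dendrites, 4.99-fold. Cd86, a ligand for T cell costimulation, read 299, 1115, 1042 and 2414 units on the 4 arrays and was at least 2.43-fold higher at day 10 by a probe set that can be shared. Its partner Cd80 read 162, 367, 471 and 1318 units, so that it passed the floor narrowly at day 10. Cd40, Il12a, Il12b and Il15 were under the floor on both arrays.

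Chemokine ligand genes were higher in 6 of 9 members above the floor, with a median of 2.50, and 16 of the 25 measured were under the floor on both. Ccl17, a ligand that draws CCR4-bearing T cells, read -311, 6021, 37488 and 80445 units. It was at least 87.6-fold higher at day 10, or at least 63.7-fold after quantile normalization. Ccl22, which uses the same receptor, and Ccl5 were at least 36.2-fold and at least 43.7-fold higher, from the floor in progenitors to 15502 and 18707 units. Ccl6 was 13-fold higher (9.16-fold after quantile normalization) from a level of 3190 units that progenitors already had. Ccl3 and Ccl4 were highest at day 7, at 5654 and 2746 units, and stood at 2613 and 1073 at day 10.

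Among the receptors for such signals 4 of 14 were higher and 2 lower (28.6% and 14.3%, beside 17.3% and 14.8% of all genes). Ccr7, which guides dendritic cells to lymph nodes, read 30 units in progenitors and 6296 at day 10, at least 14.7-fold higher. Fpr2 and C3ar1, receptors for formyl peptides and for a complement fragment, were 2.25-fold and at least 4.35-fold higher. Cxcr4, the receptor that holds progenitors in marrow, was 2.48-fold lower and C5ar1, a complement receptor of granulocytes, 2.29-fold lower. Ccr1 and Ccr2 differed less than 2-fold.

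**Figure D3:**
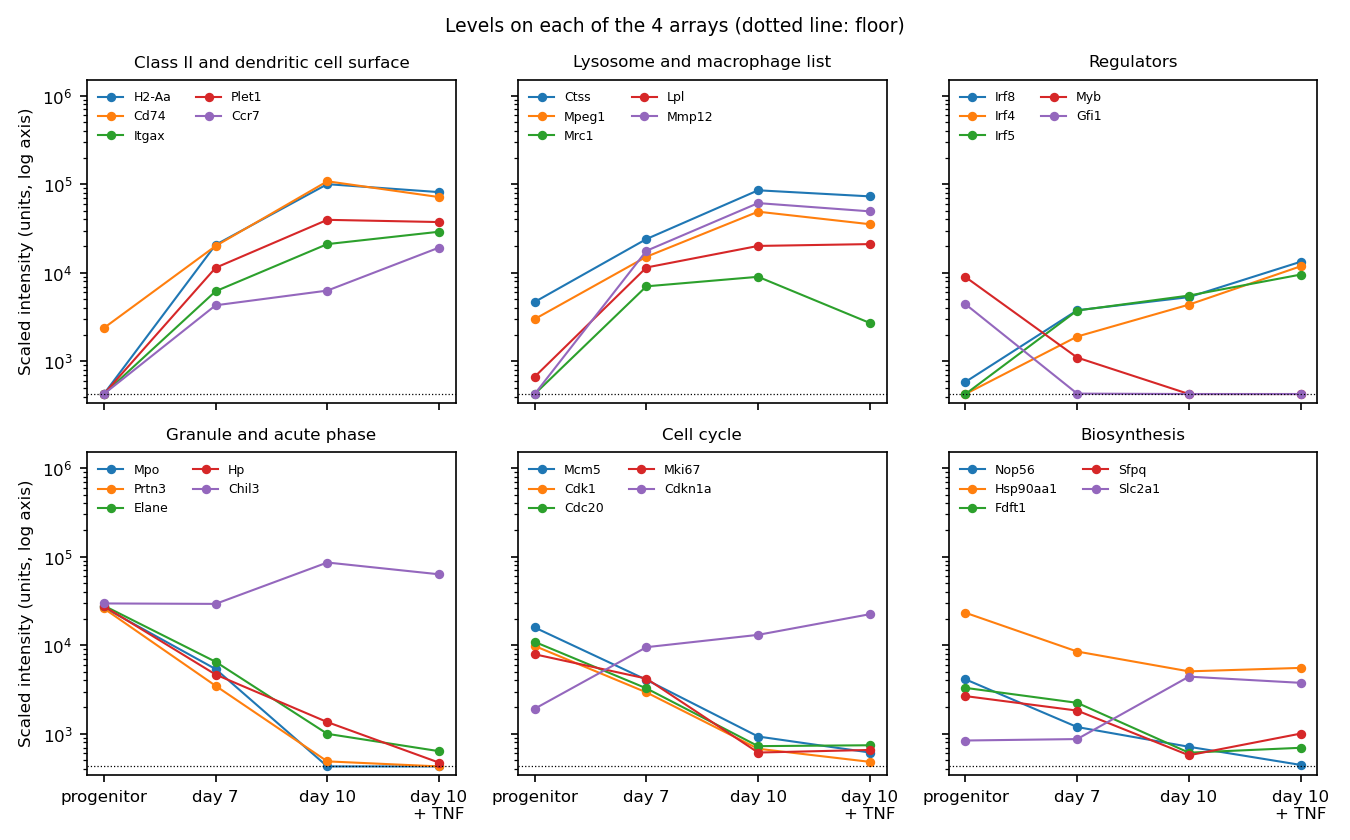
Scaled intensity (log axis) of 30 genes on the progenitor, day 7, day 10 and day 10 with TNF arrays, 1 array each, in 6 panels by role; values under 428 units are drawn at that floor (dotted line). Class II genes go up between progenitors and day 10, with H2-Aa reaching 100111 and Cd74 107887 units, while Mpo, Myb and Gfi1 end at the floor.

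Regulators of dendritic cell fate were higher in 8 of 19 members above the floor and lower in 2. Of the interferon regulatory factors in the list Irf5 was at least 12.9-fold higher (301 to 5532 units), Irf4 at least 10.2-fold (-228 to 4370), Irf8 9.06-fold (587 to 5314) and Irf1 2.19-fold. Irf3 (618 and 369 units), Irf7 (349 and 456) and Irf9 (203 and 747) crossed the floor on 1 of the arrays and passed no 2-fold bound. Irf4 and Irf8 are known to direct the main branches of dendritic cells. Irf4 and Irf8 lay above the progenitor level at day 7, at 1907 and 3774 units. Batf3, which acts with Irf8, was 4.49-fold higher, Klf4 at least 7.48-fold, and Id2, which blocks helix-loop-helix factors, 3.39-fold, from 7731 to 26187 units. Relb, an NF-kB subunit needed for dendritic cells, was at least 6.15-fold higher by one probe set but showed a log2 ratio of 0.06 by its second, which was dim. Ikzf1, the Ikaros factor of blood cell development, was at least 3.91-fold lower, and Id1 2.30-fold lower.

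Spi1, which encodes PU.1, was bright on all arrays, at 8219, 12494, 13572 and 9064 units, and 1.65-fold higher at day 10. Of the 6 genes of the Ets list above the floor Fli1 was 3.99-fold lower and Gabpb1, which codes for a partner of an Ets factor, 2.28-fold, while 0 passed 2-fold upward. Ets2, at 226 and 625 units, gave only a bound of at least 1.46-fold higher. In the list of progenitor and granulocyte regulators 5 of 15 were lower and none higher. Myb, needed for the upkeep of progenitors, read 8955, 1104, 248 and 60 units and was at least 20.9-fold lower at day 10, by a probe set that can be shared. Gfi1, a repressor that neutrophil development needs, read 4420, 432, 181 and 0 units, at least 10.3-fold lower. Nfe2 was 4.88-fold lower, Myc 2.43-fold and Lyl1 2.36-fold. The C/EBP genes of granulocyte commitment did not follow, since Cebpa read 8614 and 9700 units and Cebpb 15716 and 23034, both under 2-fold, and both just below the progenitor after quantile normalization (log2 ratios -0.11 and -0.09).

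Immediate-early and stress-linked factors were higher in 10 of 19 members above the floor and lower in none, with a median of 1.01. Atf3 was at least 19.3-fold higher (229 to 8262 units), and its second probe set gave a log2 ratio of 3.54. Egr2 was at least 14.9-fold higher, Jund 3.72-fold (2.33-fold after quantile normalization), Jun 3.66-fold and Bach1, a repressor of haem-responsive genes, 3.06-fold. Fos, Egr1, Nr4a1 and Maf were under the floor on both arrays.

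Receptors of growth factors and cytokines were measured next, and those for the colony-stimulating factors were higher. Csf1r, the receptor for M-CSF, read 983, 7256, 11354 and 12111 units and was 11.6-fold higher at day 10. The receptor for GM-CSF, the usual growth factor of such cultures, was higher in both of its chains, Csf2ra 3.10-fold (5449 to 16868 units) and Csf2rb 2.30-fold, with the related Csf2rb2 6.79-fold higher. Csf3r, the G-CSF receptor of granulocytes, was 3.04-fold higher by its main probe set, while its second gave 0.17. Receptors for interleukins 4, 10 and 13 were also higher: Il4ra 3.05-fold, Il10ra at least 3.74-fold and Il13ra1 at least 3.45-fold. Lower were Igf1r, at least 5.44-fold, Il1r2, a decoy receptor for interleukin 1, 4.48-fold (24795 to 5536 units, 7.20-fold after quantile normalization), Ifnar2 3.19-fold and the transferrin receptor Tfrc 2.77-fold. The second Ifnar2 probe set, above the floor on both arrays, gave a log2 ratio of -0.14. In all, 10 of 21 receptor genes above the floor were higher and 4 lower.

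Downstream, 8 of 15 genes of the STAT and SOCS list, which also holds the Jak kinases, were higher and none lower. After quantile normalization 6 were higher, and by the deposited values 5. Stat4 (at least 2.01-fold) and Jak1 (2.02-fold) only just passed 2-fold. Cish and Socs3, both feedback inhibitors of cytokine signalling, were 5.26-fold and at least 12.9-fold higher, Jak2 2.86-fold, Socs1 2.32-fold and Socs2 2.04-fold. Stat3, Stat5a and Stat6 were under 2-fold, though the second Stat3 probe set gave a log2 ratio of 1.05. Of 17 NF-kB genes above the floor 10 were higher, among them Nfkb2 (99 to 2245 units, at least 5.24-fold), the inhibitor Nfkbie (at least 3.71-fold), Tnip1 (2.73-fold) and Birc2 (at least 2.70-fold). Rela was at 4564 and 7548 units, 1.65-fold, and Nfkbia at 8338 and 8784. Its second probe set gave a log2 ratio of -1.41. Saa3, an acute phase gene, was the 1 member of that list that was lower, from 5892 to 129 units, at least 13.8-fold. Tnf, Il6, Il1b, Nos2 and Ptgs2 were under the floor on both arrays. In the list of TNF receptor family genes, their ligands and TRAF adaptors, 5 of 14 were higher. The receptors among them were Tnfrsf9 (4-1BB), at least 5.21-fold, and Tnfrsf1b, the TNF receptor of leukocytes, 4.98-fold (2132 to 10620 units). The others were the adaptors Traf5 and Traf1, at least 3.40-fold and at least 2.41-fold, and the ligand Ltb, 2.53-fold. Tnfrsf1a was equal at 3523 and 3513 units.

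The innate sensors gave few readings. Of the Toll-like receptor list 4 members were above the floor, of which the adaptor Myd88 was 2.25-fold higher and the co-receptor Cd14 1.69-fold, while Lbp was at least 5.81-fold lower and Tirap at least 2.01-fold lower. Interferon-induced genes were higher in 4 of 10, Gbp2 by at least 5.54-fold and Lgals3bp by 11.7-fold, and the classical members Ifit1, Ifit3, Isg15, Mx1 and Rsad2 were under the floor on both arrays. Of the interleukin 1 family Il18 was at least 7.82-fold higher (80 to 3349 units) and the receptor antagonist Il1rn 4.02-fold. The C-type lectin and scavenger receptors were clearer. Mrc1, the mannose receptor, read 314, 7033, 9009 and 2714 units, at least 21.0-fold higher at day 10 and lower with TNF. Cd68 was 11.2-fold higher, and the scavenger receptors Marco and Msr1 at least 5.47-fold and at least 3.46-fold. Of 6 Fc receptor genes above the floor 2 were higher, Fcgrt 10.1-fold and Fcgr2b 4.30-fold, and 0 lower, around a median of -0.06. Fcgr1, Fcgr3 and Fcer1g passed no 2-fold bound. Of 10 C-type lectin and scavenger receptor genes above the floor, 6 were higher and 0 lower. The complement gene C1qc, in contrast, read 1679 units in progenitors and -20 at day 10, at least 3.92-fold lower. Itgam, which encodes CD11b, was 2.86-fold lower (1669 to 583 units).

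Endosomal and lysosomal proteases formed one of the clearest groups. Of the cathepsins, legumain and cystatins 12 of 15 members above the floor were higher and 1 lower; the median log2 ratio was 2.07, or 1.42 after quantile normalization. Lgmn, an asparagine-specific protease, was at least 20.8-fold higher (399 to 8920 units), Ctsh 9.24-fold, Ctsa 7.95-fold and Ctsl 6.61-fold. Ctsb, Ctsd and Psap were bright in progenitors and 5.37-fold, 4.20-fold and 4.20-fold higher at day 10, or 2.79-fold, 2.17-fold and 2.03-fold after quantile normalization. Cst7, an inhibitor of cathepsins, was the exception: it read 8955 units in progenitors, 1052 at day 7, -36 at day 10 and -378 with TNF. Of the other lysosome and proton pump genes 14 of 27 were higher and none lower, with Npc1, the cholesterol exporter, 8.60-fold, Naglu 6.84-fold, Lipa 6.51-fold, Hexa 3.64-fold and the pump subunit Atp6v1b2 3.70-fold. Lamp2, Gusb and Glb1 were under 2-fold.

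Of 53 vesicle traffic genes 13 were higher (24.5%, beside 17.3% of all genes) and 1 lower, and the median was 0.49. Among the higher ones were the membrane fusion genes of the syntaxins Stx3 (7.77-fold), Stx6 (at least 3.92-fold), Stx2 (3.05-fold) and Stx4a (2.81-fold), their partners Stxbp3 (3.70-fold) and Snap23 (2.84-fold), and among the sorting nexins were Snx5 (3.08-fold, but 0.19 on the log2 scale by its second probe set) and Snx1 (2.45-fold). Dab2, a clathrin adaptor, was 5.47-fold higher by a probe set that can be shared, and its second gave a log2 ratio of 2.99. Rab5c, an early endosome GTPase, was the 1 lower member, 2.28-fold, while Rab5a, Rab7 and Rab11a were under 2-fold.

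Lipid-handling and matrix genes of macrophages were higher in 11 of 18 and lower in 4. Mmp12, the macrophage elastase, read 118, 17697, 61180 and 49379 units and was at least 143-fold higher at day 10, or at least 93.9-fold after quantile normalization; its second probe set gave 7.06 on the log2 scale. Lpl, lipoprotein lipase, was 30.0-fold higher (670 to 20101 units), or 24.0-fold after quantile normalization. Its second probe set was under the floor on both arrays (-133 and -69 units). The tetraspanin Cd9 was 14.9-fold higher (10.8-fold after quantile normalization), and the fatty acid carriers Fabp4 and Fabp5 7.82-fold and at least 10.1-fold. Fn1, fibronectin, went the other way: 14592 units in progenitors, 390 at day 7, 496 at day 10 and 170 with TNF, 29.4-fold lower at day 10. Apoe, Vcan and Apoc2 were at or under the floor at day 10 and at least 2.51-fold, at least 2.16-fold and at least 2.11-fold lower.

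Adhesion and cytoskeleton genes differed member by member. Of 10 integrins above the floor 5 were higher, among them Itgb5 (at least 7.20-fold), Itgb2 (3.90-fold) and Itgal (3.29-fold), and Itgb7 was 2.24-fold lower beside Itgam. Of 41 actin and motility genes 13 were higher and 2 lower, around a median of 0.44. After quantile normalization 11 were higher and 3 lower, around a median of 0.16. Tpm4 was 4.17-fold higher, Gsn, gelsolin, 3.97-fold and Pfn1, profilin, 2.96-fold, while Was, the Wiskott-Aldrich protein gene, was 2.83-fold and Vcl, vinculin, 2.66-fold lower. Annexin and S100 genes were higher in 8 of 15, with S100a1 11-fold, Anxa4 8.51-fold and S100a4 3.95-fold. Their median of 1.08 became 0.15 after quantile normalization, with 5 higher and 2 lower.

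The primary granule list held some of the brightest progenitor transcripts that were lower at day 10. It is drawn widely and also holds genes of other lists, such as Cst7, the mast cell gene Cpa3 and the eosinophil gene Epx. Of its 13 members above the floor 9 were lower and 3 higher, around a median of -2.05. Mpo, myeloperoxidase, read 26660 units in progenitors, 5381 at day 7, 200 at day 10 and -235 with TNF, at least 62.3-fold lower at day 10, by a probe set that can be shared, and at least 99.9-fold after quantile normalization. A second, dim Mpo probe set read 530 and 168 units. The serine protease genes were lower as well: Prtn3 53.2-fold (25998 to 488 units), Ctsg at least 38.4-fold (16423 to 158) and Elane 28.0-fold (27938 to 999). Plac8 was 25.1-fold lower and Cst7 at least 20.9-fold. Quantile normalization made the bright ones larger, with Prtn3 86.1-fold, Elane 46.1-fold and Plac8 38.7-fold lower. At day 7 these genes lay in between, with Prtn3 at 3482 and Elane at 6501 units. The 3 higher members were Lyz2, lysozyme, which macrophages share (9479 to 72830 units, 7.68-fold, and 4.43-fold after quantile normalization), Ctsc, which activates the serine proteases (3.98-fold), and Epx, the eosinophil peroxidase (at least 6.98-fold).

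Ets factors such as PU.1 bind a purine-rich core, and granule promoters are known targets. The 250 bases before the start of 3 granule genes are shown with the letters GAGGAAGT in capitals (RefSeq, GRCm38.p6, 5′ to 3′ on the plus strand): Mpo at chr11:87793534-87793783, Elane at chr10:79886062-79886311 and Prtn3 at chr10:79879417-79879666.
Mpo: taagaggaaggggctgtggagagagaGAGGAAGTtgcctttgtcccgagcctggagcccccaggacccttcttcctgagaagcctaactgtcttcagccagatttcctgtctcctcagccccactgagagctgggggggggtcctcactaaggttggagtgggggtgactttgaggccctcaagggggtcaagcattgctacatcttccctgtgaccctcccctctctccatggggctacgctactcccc
Elane: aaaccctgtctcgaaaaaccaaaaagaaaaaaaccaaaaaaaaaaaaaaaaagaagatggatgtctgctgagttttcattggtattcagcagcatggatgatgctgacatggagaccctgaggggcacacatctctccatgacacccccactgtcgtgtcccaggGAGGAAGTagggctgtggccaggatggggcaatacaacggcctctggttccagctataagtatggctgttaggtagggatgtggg
Prtn3: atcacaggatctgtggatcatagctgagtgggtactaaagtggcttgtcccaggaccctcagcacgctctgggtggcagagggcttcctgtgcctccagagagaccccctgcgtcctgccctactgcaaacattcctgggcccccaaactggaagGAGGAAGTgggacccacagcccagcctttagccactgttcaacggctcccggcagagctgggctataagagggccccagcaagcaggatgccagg
The letters began 224 bases before the start in Mpo, 85 in Elane and 95 in Prtn3. These were the 3 of 8 lower members of the primary granule list with a promoter in the table that held them on either strand. Of all 27025 genes in that table, 2.79% did. Elane and Prtn3 lie side by side on chromosome 10, so they are not independent examples.

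Later granulocyte genes did not move as one group. Of 23 above the floor 6 were lower and 4 higher (26.1% and 17.4%, beside 14.8% and 17.3% of all genes), around a median of -0.23. After quantile normalization these counts were 8 and 2 and the median -0.60. Hp, haptoglobin, was 20.3-fold lower (27530 to 1356 units), Orm1 at least 7.93-fold, Pglyrp1, a bactericidal recognition protein, 7.38-fold and Camp, cathelicidin, 2.01-fold, or 33-fold for Hp, 11.5-fold for Pglyrp1 and 3.5-fold for Camp after quantile normalization. Others stayed bright. Ngp read 19177, 17864, 27554 and 831 units, Ltf 15998, 18367, 13610 and 423, and S100a9 27940, 20977, 28322 and 6290, so that each was within 2-fold at day 10 and lower with TNF. S100a8 was 2.12-fold higher and Ngp 1.44-fold, but both turned below the progenitor after quantile normalization (log2 ratios -0.17 and -0.31), as did S100a9 (-1.11). Chil3, a chitinase-like protein of myeloid cells, was 2.90-fold higher and 1.03-fold after quantile normalization.

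Cell cycle genes were lower with few exceptions. Of the mitotic kinases and chromosome segregation genes 30 of 32 above the floor were lower and 0 higher, around a median of -2.06, beside 14.8% of all genes. Cdc20, the activator of the anaphase-promoting complex, read 10903, 3258, 725 and 742 units and was 15-fold lower at day 10. Mki67, the proliferation marker Ki-67, was 12.9-fold lower (7899 to 614 units), Birc5, survivin, at least 11.7-fold, and the kinases Aurka, Aurkb, Bub1 and Plk1 between 4.03-fold and at least 6.20-fold. Of the 2 members not called, Pttg1 was 1.65-fold higher, and Racgap1 fell below the floor (557 and -187 units), so that its bound of at least 1.3-fold lower does not settle 2-fold.

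Replication genes were mostly lower. Of the helicase and origin licensing genes 9 of 14 were lower and 0 higher, with Mcm5 17-fold lower (15849 to 932 units), Mcm7 11.6-fold, Mcm4 at least 10.1-fold and Cdc6 at least 6.20-fold; of the origin complex genes Orc4 and Orc5 were under 2-fold, and Orc1 gave a bound of at least 1.34-fold lower. At the fork and in nucleotide supply 22 of 28 were lower and 0 higher. The ribonucleotide reductase chains Rrm1 and Rrm2 were 10.3-fold and 9.52-fold lower, Pclaf at least 11.3-fold, Fen1 7.72-fold, Dnmt1, the maintenance methyltransferase, 5.58-fold and Pcna 3.41-fold, from 11641 to 3418 units. A second Rrm1 probe set was under the floor on both arrays. Cyclins and their kinases were lower in 12 of 21, with Cdk1 14.5-fold (9807, 2934, 678 and 482 units), Cks1b 11.5-fold, Ccnb2 7.11-fold and Ccna2 6.05-fold. Ccnd1, Ccng2, Cdk4 and Cdk5 were under 2-fold. At day 7 the genes lay in between, with Mcm5 at 4069 and Mki67 at 4199 units.

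Mitotic promoters are known for a cell cycle homology element with the letters TTTGAA, often next to CCAAT boxes. The 150 bases before the start of 3 lower genes that hold TTTGAA, Cdk1 from the cyclin list among them, are shown with both in capitals on either strand (RefSeq, GRCm38.p6, 5′ to 3′ on the gene's strand, the minus strand for each): Cdc20 at chr4:118437344-118437493, Cdk1 at chr10:69352913-69353062 and Mki67 at chr7:135716380-135716529.
Cdc20: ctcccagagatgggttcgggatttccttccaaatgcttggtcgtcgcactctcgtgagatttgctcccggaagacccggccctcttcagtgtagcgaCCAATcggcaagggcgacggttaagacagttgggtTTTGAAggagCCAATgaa
Cdk1: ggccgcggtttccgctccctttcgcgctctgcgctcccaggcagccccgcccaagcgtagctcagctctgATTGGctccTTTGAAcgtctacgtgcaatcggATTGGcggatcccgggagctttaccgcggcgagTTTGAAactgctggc
Mki67: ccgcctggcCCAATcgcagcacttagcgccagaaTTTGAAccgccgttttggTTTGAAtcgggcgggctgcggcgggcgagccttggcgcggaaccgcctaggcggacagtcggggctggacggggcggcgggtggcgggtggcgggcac
The first TTTGAA from the start lay 18 bases before it in Cdc20, 15 in Cdk1 and 98 in Mki67, and in none of the 3 did it overlap ATTGG or CCAAT. Of 25 lower mitotic members with a promoter in the table, 10 held TTTGAA and 21 held ATTGG on either strand. Of all 27025 genes in that table, 10.5% and 27.7% did.

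Genes that hold the cycle back were higher in 6 of 16 and lower in 1. Cdkn1a, the inhibitor p21, read 1916, 9496, 13085 and 22384 units and was 6.83-fold higher at day 10, with 4.32 on the log2 scale by its second probe set. Gadd45g, Gadd45b and Gadd45a, growth arrest genes, were at least 10.4-fold, 5.38-fold and at least 4.58-fold higher, Btg1, an antiproliferative gene, 7.01-fold and Cdkn1c at least 3.99-fold. Cdkn1b, p27, was 1.57-fold higher and Rb1 level at 611 and 607 units. In the Bcl2 family list, which also holds caspase genes, Apaf1 and Bag1, 6 of 12 were higher, and 4 after quantile normalization. Both death and survival genes were among the 6. Bcl2l11 (Bim) was 4.72-fold higher, with 0.53 on the log2 scale by its second probe set, Mcl1 2.84-fold and Bcl2l1 2.07-fold. Casp6 was at least 5.12-fold higher and Bag1 at least 2.89-fold. Bak1 was 3.27-fold lower.

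Growth and biosynthesis were lower in several lists of modest size. Of 31 Myc network and ribosome biogenesis genes 15 were lower and 2 higher, with Nop56 5.77-fold lower (4118 to 714 units), Cad 4.41-fold, Srm 4.37-fold and Npm1 2.10-fold (3.52-fold after quantile normalization); the antagonist Mxd4 was 3.04-fold higher. Splicing factors were lower in 15 of 28 and higher in 0, with Sfpq 4.65-fold, Hnrnpl 4.64-fold and U2af1 4.38-fold. Chromatin genes were lower in 15 of 33, led by Hmgb3 (9.31-fold), Cbx5 (at least 8.41-fold) and Hmgb2 (7.55-fold), all abundant in dividing cells. Against this trend Dnmt3a, a de novo methyltransferase, was at least 10.5-fold higher (394, 957, 4507 and 2328 units), and Ezh1 was 2.59-fold higher while Ezh2 was 2.20-fold lower.

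Protein folding and turnover genes showed the same direction. Chaperones were lower in 10 of 26 and higher in 1, with P4hb at least 6.10-fold lower, Fkbp4 and Fkbp5, cochaperones of steroid receptors, 5.53-fold and 4.60-fold, and Hsp90aa1 4.58-fold, from 23229 to 5068 units. The 1 higher member was Ddit3, the stress factor CHOP, at 336, 1350, 6011 and 4312 units, at least 14-fold. Proteasome genes were lower in 10 of 27 and higher in 1, with a median of -0.81; after quantile normalization 15 were lower.

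Ribosomal protein genes depended on the scaling. By the plain values 14 of 21 were higher and 0 lower, around a median of 1.23, but after quantile normalization 3 were higher and 1 lower around a median of 0.03. The median level of the 32 measured members, 11 of them under the floor on both arrays, was 13490 units in progenitors and 32872 at day 10. Rpl41, the largest ratio, was 14.8-fold higher, and 8.08-fold after quantile normalization, by a probe set that can be shared within its family. The translation factor gene Eef1a1 was 5.56-fold higher and 2.47-fold after quantile normalization.

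Metabolic lists differed in size and direction. Cholesterol synthesis genes were lower in 8 of 13 and higher in 0, with a median of -1.24: Fdft1, squalene synthase, 5.39-fold (3298 to 612 units), Idi1 3.65-fold, Fdps 3.14-fold (5.83-fold after quantile normalization) and Dhcr7 at least 3.10-fold. Srebf1 read 4643 and 7077 units, under 2-fold. Mitochondrial genes barely differed. Of 37 above the floor 1 was lower, Mdh2 (2.16-fold), and 0 higher, with a median of -0.19. Glycolytic genes were higher in 6 of 18 and lower in 0, with the glucose transporter Slc2a1 5.26-fold (840, 872, 4416 and 3760 units) and Hk2 2.36-fold (2221, 1905, 5251 and 3795). Neither stood out at day 7, when both lay close to the progenitor level. The median of that list, 0.73, became 0.14 after quantile normalization. In fatty acid metabolism 8 of 24 were higher and 3 lower (33.3% and 12.5%, beside 17.3% and 14.8% of all genes). Fasn, fatty acid synthase, was 4.06-fold lower (12550 to 3090 units) and the desaturase Scd1 2.54-fold higher.

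Metal and redox genes were mixed. The metallothioneins Mt2 and Mt1, which bind zinc and copper, were 11.7-fold and 4.45-fold higher, or 6.71-fold and 1.90-fold after quantile normalization, and Prdx4 4.08-fold. Gpx3, a secreted glutathione peroxidase, was 13.7-fold lower (6566, 760, 480 and 104 units). Slc7a2, a transporter of arginine, was at least 14.9-fold higher (-4 to 6393 units), Car4, a carbonic anhydrase, 9.98-fold and Arg2 at least 3.19-fold, while Arg1, Acod1 and Nos2 were under the floor on both arrays. Psat1, of serine synthesis, was 9.23-fold lower and Ces2g, a carboxylesterase, at least 17.1-fold lower (7306 to -195 units).

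**Figure D4:**
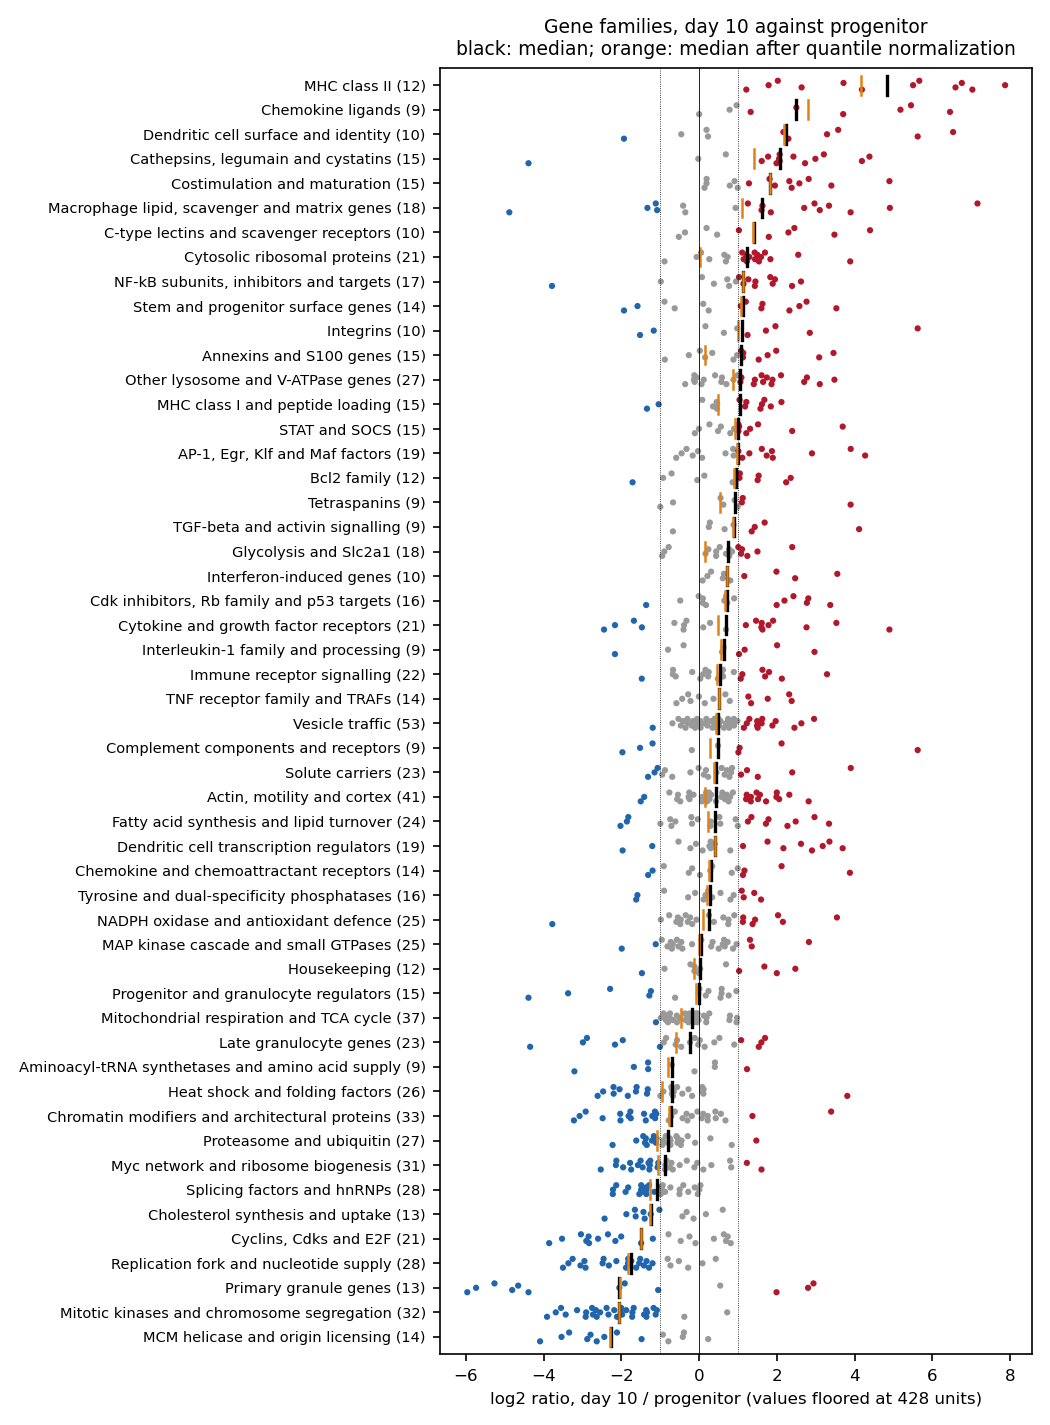
Log2 ratio of day 10 to progenitor for each member that either array put above 428 units, for gene lists with 9 or more such members (number in brackets), ordered by median; red and blue points are at least 2-fold higher and lower. Black ticks are medians and orange ticks medians after quantile normalization; MHC class II has the highest median (4.84) and MCM and origin licensing the lowest (-2.27), and ribosomal proteins show the widest gap between the ticks (1.23 and 0.03).

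Markers of other cell types were read to see what else the cultures could hold. In the macrophage list 10 of 17 members above the floor were higher and 3 lower. The summed level of its 21 measured genes was 32022 units in progenitors and 236631 at day 10, a sum that its brightest members weigh on most. Mpeg1, perforin 2, was 16.3-fold higher (3001 to 48950 units), or 11.1-fold after quantile normalization. Its second probe set was under the floor on both arrays. Adgre1, which encodes F4/80, was 4.06-fold and Mertk at least 2.14-fold higher, while the list's C1qb, Axl, Siglec1 and Maf were under the floor on both arrays. Dendritic cells share many of these genes, and what part macrophages had in the results was not tested. Eosinophil markers were 2 of 6 above the floor, Epx and Prg2, and both were higher, Prg2 4.43-fold with 0.22 on the log2 scale by its second probe set. Vwf, a megakaryocyte and endothelial gene, read 399, 7080, 13758 and 5878 units, at least 32.1-fold higher, while Pf4, Gp5, Gp9 and Gp1bb were under the floor on both arrays. Of the mast cell list Mcpt8 and Cpa3 were 3.34-fold and 3.76-fold lower, and the tryptase gene Tpsb2 was under the floor on both.

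Lymphocyte and stromal markers had low sums on both arrays. The summed level of 15 T cell genes was 2111 units in progenitors and 1851 at day 10, with Cd3e below 0 on both, and 23 stromal genes summed to 3213 and 3007. Of these, 13 T cell and 21 stromal genes were at or under the floor on both arrays, so the sums include many such values. The 16 B cell genes summed to 5741 and 7640 units, with Pax5 2.44-fold higher, and Cd79a and Ms4a1 under the floor. The sum of 11 NK cell genes went from 993 to 3103 units, with 1 of 3 above the floor higher, and that of 8 plasmacytoid dendritic cell genes from 1361 to 4140, with 1 of 4 higher. What part such cells had in the results was not tested. For 59 genes of other organs (the albumin gene is one) the sums were 17568 and 20357 units. Of them, 11 lay above the floor on an array, and 5 of these were at least 2-fold higher and 1 lower, Gh among the higher (1684 to 4536 units), so that calls at such levels occurred in genes these cells should not use.

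Genes outside the lists with large ratios were also named by rank. Pld3, a lysosomal exonuclease, was 51.5-fold higher (571, 9500, 29397 and 15310 units) and Mfge8, which bridges dying cells to phagocytes, 32.7-fold (1416 to 46313). After quantile normalization they were 37.9-fold and 22.8-fold higher. Gm2a, the activator of ganglioside breakdown, was 15.4-fold higher (11.7-fold after quantile normalization), Sgk1, a kinase, 17.4-fold and Zfp703 15-fold. Actg2 was 22.9-fold and H2-Q5 13.4-fold higher, each by a probe set that families of near-identical genes can share. In the other direction Nt5dc2 was at least 16.4-fold lower (7040 to 319 units) and Rbm38 at least 12.4-fold. Mtm1 was at least 14.7-fold lower by a probe set that can be shared, but its second probe set read 744 and 1158 units, a log2 ratio of 0.64 in the opposite direction.

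The only error these arrays offer is the disagreement between probe sets of one gene. For 343 genes with a second probe set above the floor on both arrays, the log2 ratios of the pair differed with an SD of 0.81 and a median absolute difference of 0.51. Of 99 higher genes whose second probe set could be read, 47 were at least 2-fold higher by it too, 51 were not and 1 was lower. Of 72 lower genes, 37 were lower by it, 35 were not and 0 were higher. Ratios near 2-fold are thus within this disagreement. The ratios of H2-Aa (7.87 on the log2 scale), Prtn3 and Cdc20 are several times its SD, but each of these genes has 1 probe set. The SD also leaves out genes at or under the floor on an array. Among those, the 2 probe sets of Mtm1 gave log2 ratios of -3.87 and 0.64, and those of Mpo -5.96 and -0.31. The SD therefore cannot vouch for such ratios. It covers differences between probe sets on one pair of arrays, and none between cultures. Of further genes named above, the second probe set gave a log2 ratio of 0.51 for H2-K1, 0.78 for Scd1 and 0.96 for Atp6v1b2, each short of 2-fold.

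**Figure D5:**
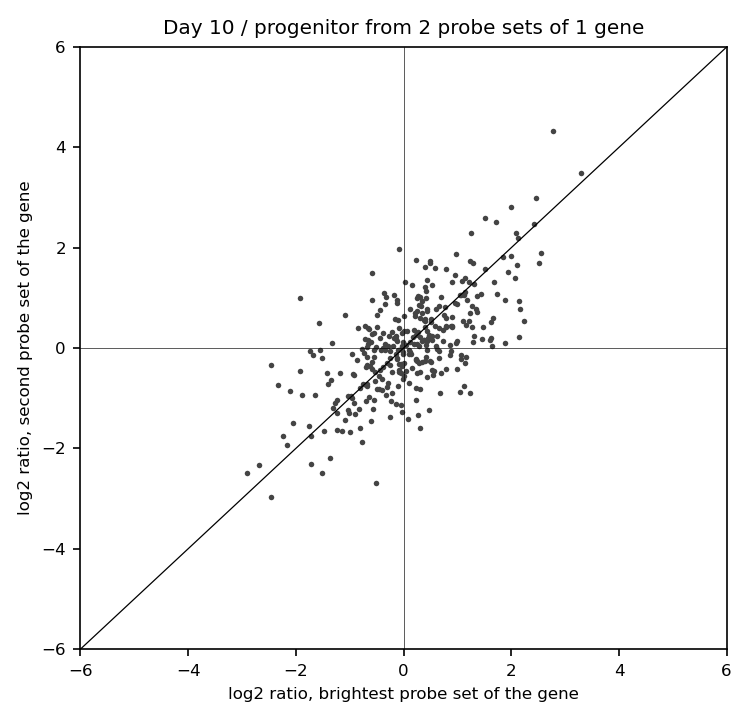
Log2 ratio of day 10 to progenitor by the brightest probe set of a gene (horizontal) and by its second (vertical), for the 343 genes with both above 428 units on both arrays; the diagonal marks equal ratios. Points scatter about the diagonal with an SD of the difference of 0.81.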

How the data were processed

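The authors deposited 1 table of probe-set intensities for 4 Affymetrix arrays, with 12654 probe sets. Which software and background step made these deposited intensities, and which probe sets it called detected,: not given in the sources used here. Per the deposited values, between 22.8% and 24.3% of an array's probe sets are negative and the trimmed means are alike, so a background had been subtracted and the arrays matched. Gene names came from the platform's annotation table: 10298 probe sets have 1 gene symbol, 363 several and 1993 none, and 10279 symbols were updated through Entrez numbers. Control probe sets (66) were left out.

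The arrays were brought to the same 75th percentile by factors of 0.962 to 1.05. A floor at the 60th percentile over the scaled arrays (428 units) replaced anything lower before log2 was taken. Each of 8220 genes was represented by its brightest probe set on average. A gene counted as different at 2-fold or more with at least 1 of the 2 arrays above 428 units. Calls need no replicate and carry no p-value, and the number of arrays limits the precision. The steps were run on simulated arrays, with planted changes larger than 2-fold in genes well above the floor. Recovery of changes near 2-fold or set by the floor was not tested. Python 3.11.15 with pandas 2.3.3, numpy 2.4.6 and statsmodels 0.14.6 was used.

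The 1797 listed genes (1392 measured) form 56 lists of programmes and 11 of markers, and a gene may stand in several. The arrays compared, the lists and the promoter motifs were chosen with earlier results of these data known, so no list is independent evidence. Genes named are the 15 highest and 15 lowest ratios above the floor on both arrays, the 10 brightest in each direction with the other side at the floor, and members of lists. Promoters are RefSeq windows of 250 bases before to 50 after the start.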

Additional observations from a re-analysis of the deposited data

Results flagged for a closer look

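Signals outside the gene comparison were of 3 kinds. The 9 spiked control probe sets, whose transcripts are added to the hybridisation and do not come from the cells, were brighter at day 10 by a median of 1.18 on the log2 scale. The 3′ probe set for 18S ribosomal RNA read 260 units in progenitors and 5637 at day 10, a log2 ratio of 3.72; its part in the results was not tested. Of the 2312 probe sets without exactly 1 gene symbol, 653 were above the floor on at least 1 array, and 118 of these were higher and 77 lower at day 10 by 2-fold or more. None of these values enters a count of genes.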

How the results depend on the processing

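With 1 array in each group no replicate could be left out. No paired analysis was possible because each group has 1 array. The counts of 771 higher and 660 lower genes, 53.9% of them higher, were 682 and 763 (47.2%) without scaling, 685 and 713 (49.0%) after quantile normalization and 737 and 663 after loess between the arrays. With the floor at the 40th percentile (105 units) they were 1264 and 1043, and at 3-fold 392 and 266, with 59.6% higher. Of 302 single genes named and above the floor, 7 changed sign under an alternative. S100a8, 2.12-fold higher by the plain values, was the 1 called gene among them, with a log2 ratio of -0.17 after quantile normalization and -0.093 after loess. The other 6 (Cebpa, Cebpb, Glb1, Nfkbia, Ngp and S100a9) had plain log2 ratios of 0.55 or less in size. The median of the megakaryocyte markers went from 1.36 to -1.85 with the floor at the 40th percentile; the cause was not tested. In none of the 8 alternatives was a gene called in one direction called in the other. Another floor or threshold cannot reverse a ratio, and leaving out the scaling moved ratios only a little. Those alternatives could therefore not have given an opposite call.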

Other observations

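Genes outside every list made up 497 of the 771 higher and 452 of the 660 lower genes. The following were chosen after their values were seen. Among the higher ones were genes of endocytosis, lipid breakdown and membrane signalling. Mgll, which cleaves monoglycerides, was at least 27.6-fold higher (256 to 11797 units), Lrp1, an endocytic receptor for lipoproteins, 11.1-fold (1868 to 20670), and P2rx4, an ATP-gated channel, at least 9.63-fold. Gpr137b, a lysosomal membrane protein gene, was at least 15.3-fold higher, and its pseudogene Gpr137b-ps 25.6-fold, by probe sets of near-identical genes. Bhlhe40, a helix-loop-helix repressor, was 11.2-fold higher (1367 to 15309 units).

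Among the lower genes outside the lists several belong to cell division. Cdca7, a chromatin factor of dividing cells, was at least 9.67-fold lower, Cdca8, borealin, 8.74-fold, the thymidylate kinase gene Dtymk at least 9.08-fold, the nuclear import gene Kpna2 9.16-fold and the repressor E2f8 at least 6.51-fold. Lrg1, a glycoprotein gene of granulocytes, was 6.79-fold lower (6153 to 907 units) and Adgrg3, a receptor of granulocytes, 5.95-fold.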
